A study of Arabidopsis thaliana with 8 samples.

Results

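The comparison set root zones 1 and 4 against root zones 2 and 3, called outer and inner zones by their numbers alone. It took the 4 arrays labelled longitudinal zone 1 or 4 and the 4 arrays labelled zone 2 or 3, which together are all 8 arrays of the series. The samples were chosen by their zone label, and for each probe set the mean of the zone 1 and zone 4 means was set against the mean of the zone 2 and zone 3 means, on the log2 scale of the deposited MAS5 signals.

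All 8 samples were root sections of Arabidopsis thaliana, ecotype Columbia, with 2 samples per zone. The seedlings grew for 5 days on MS medium, a standard mineral medium, and then spent 3 hours on sulfur-deficient medium, so the sulfur-deficient medium was shared by every sample and no sulfur-sufficient group was compared. The labels give no position for the numbered zones, and none is assumed here. Nor do they say whether a zone's 2 samples are separate plants or pools, and the p-values refer to array-to-array spread that could be partly technical.

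A growing root carries cells of successive ages along its axis. Cells divide in the meristem near the tip, then stop dividing, elongate, and differentiate into root hairs, transport cells and vessels. Dividing cells are known for high levels of mitotic genes and of genes for making ribosomes, and elongating cells for genes that remodel the wall and vacuole. Groups of cells inside older root tissue can resume division when a lateral root forms. In sections of bulk tissue, fewer cells of a type and less RNA per cell cannot be told apart.

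Median signals ranged from 57.8 to 79.6 between arrays. Averaged over the pairs of arrays, log2 signals of zone 4 correlated with those of zone 1 at r = 0.732, with those of zone 2 at 0.869 and with those of zone 3 at 0.862, across probe sets that are not independent. The outer zones therefore were not the most alike pair. The ratio of 3' to 5' signal for the GAPDH control transcript was 64.3 and 13.2 in zone 1, 29.5 and 17.7 in zone 4, 18.5 and 32.2 in zone 2, and 14.8 and 26.0 in zone 3, so the 2 sides overlapped. As a check for shoot material, the summed signal of 13 nuclear photosynthesis genes was 583 and 236 in zone 1, 1434 and 1409 in zone 4, 398 and 782 in zone 2, and 1005 and 768 in zone 3. RCA, which encodes Rubisco activase, did not exceed 106 on any array. Zone 4 was highest in that sum and zone 1 lowest on 1 array, and its part in the results was not tested. Root hair expansin genes, by contrast with RCA, reached 1268 on 1 array, and 1 listed root hair marker of 3 was too dim to test.

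Genes of cell division (8 of 14 tested) and of ribosome production (12 of 14) were called higher on the average of zones 1 and 4. None of either list was called on zone 4 alone. Genes called lower on the average included the cell cycle inhibitor SIM and TUB1. They also included TMT1 and SWEET16, 2 of the 6 vacuolar and SWEET sugar transporters tested. SIM, TUB1, TMT1 and SWEET16 were not called on zone 4 alone either. A probe set was called where limma's adjusted p was under 0.05 and the difference at least 2-fold. Of 13647 probe sets tested, 1298 (9.51%) were called higher in zones 1 and 4 and 783 (5.74%) were called lower, 2081 (15.2%) in all. Among those called higher, all 4 arrays of zones 1 and 4 lay above all 4 arrays of zones 2 and 3 in 591 (45.5%), against 962 (7.05%) over all probe sets tested. Among those called lower, the 4 arrays lay below the other 4 in 284 (36.3%), against 839 (6.15%) over all tested. The calls were made on these same values, so the larger shares among them follow from the selection and are no separate evidence.

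Zone 1 carried most of the difference in both directions. The median log2 difference of the probe sets called higher was 1.49, made up of 2.02 for zone 1 against zones 2 and 3 and 1.02 for zone 4 against zones 2 and 3. For the probe sets called lower the median was -1.47, with -2.37 from zone 1 and -0.57 from zone 4. Zone 1 had the highest mean of the 4 zones in 1194 of the 1298 and the lowest in 755 of the 783.

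How far zone 4 shared in the calls depended on the scaling of the arrays. As deposited, both the zone 1 mean and the zone 4 mean lay above the zone 2 and zone 3 means in 1126 (86.7%) of the probe sets called higher, and both lay below in 489 (62.5%) of those called lower. For the same probe sets with each array centred on its median, the counts were 891 (68.6%) and 571 (72.9%), and the median parts were 2.13 from zone 1 and 0.77 from zone 4 on the higher side, -2.25 and -0.82 on the lower side. Over all tested, both means lay above in 23.62% and below in 19.62% as deposited, and in 15.24% and 24.03% after centring. The shares over all tested thus moved with the scaling in the same direction as those of the called sets. The calls were made on these same means, so the larger shares among them are no separate evidence. In the deposited scaling the zone 4 mean lay between the zone 2 and zone 3 means in 245 of the 783 called lower, and above both of them in 49. Zone 1 and zone 4 themselves differed in 249 (19.2%) of the probe sets called higher and in 481 (61.4%) of those called lower, against 1957 (14.3%) over all tested, 530 (3.88%) with zone 1 higher and 1427 (10.5%) with zone 1 lower. After centring, that last split was 1458 higher and 991 lower. In 248 of the 249 zone 1 was the higher of the pair, and in 480 of the 481 it was the lower. The weights of this contrast are orthogonal to those of the averaged one.

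The count depends on which spread the difference is measured against. The fit above estimates the spread from the 2 arrays of each zone, and with 1 mean for each side, where the differences between the zones of a side count as error, 25 probe sets were called (18 higher, 7 lower). The call count was 60 when zones 1 and 4 were set against zone 2 alone and 3146 against zone 3 alone. Leaving out single arrays moved it most for replicate 2 of zone 2 (906 calls) and for replicates 1 and 2 of zone 4 (1066 and 1339).

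**Figure D1:**
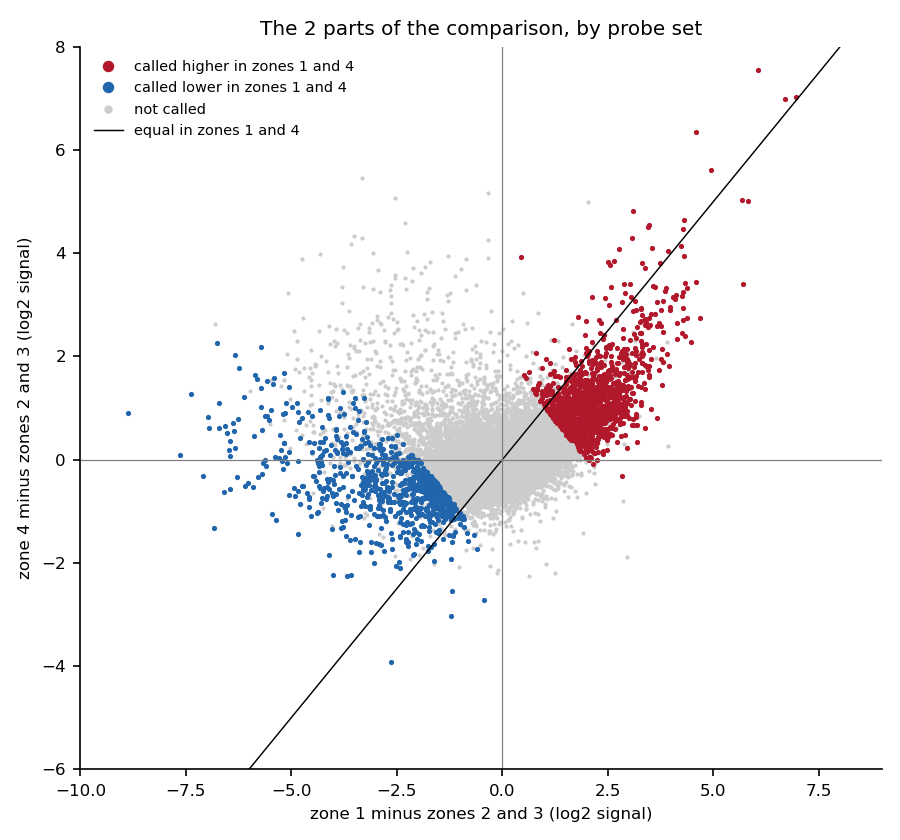
Each point is 1 of the 13647 probe sets, with the log2 difference of zone 1 from zones 2 and 3 on the x axis and that of zone 4 from zones 2 and 3 on the y axis; red points were called higher in zones 1 and 4 (1298), blue points lower (783), grey points neither, and the line marks equal values in zones 1 and 4. Most red points lie in the upper right, mainly below the line, while the blue points extend far to the left around a zone 4 difference of 0.

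ATGSTF13 shared the smallest adjusted p of the table with AT3G15720 and others, and encodes a phi-class glutathione transferase, an enzyme family that conjugates glutathione to reactive compounds. Its signals were 1116 and 1230 in zone 1 and 965 and 880 in zone 4, against 107 and 83.4 in zone 2 and 23.5 and 60.6 in zone 3. Every array of the outer zones was far above every array of the inner ones, and the 2 outer zones were close to each other. The difference was 17.4-fold (log2 4.12, SE 0.30, limma adjusted p = 0.00039), it was called on zone 4 alone (log2 3.95, adjusted p = 0.0084), and with 1 mean per side the adjusted p was 0.021.

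BBM encodes BABY BOOM, an AP2-type transcription factor of embryos and of root stem cells. It had signals of 601 and 149 in zone 1 and 156 and 235 in zone 4, against 7.61 and 8.76 in zone 2 and 1.6 and 10.8 in zone 3. All inner arrays were near the dim end of the range and all outer ones well above it, so the size of the fold is uncertain. The log2 difference was 5.36 (SE 0.72, adjusted p = 0.0021), and 2.56 when dim signals were raised to a floor, each array's 40th percentile. On zone 4 alone it was 5.04 with an adjusted p of 0.055, so it was not called there.

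UGT76C2 encodes a UDP-glucosyltransferase that inactivates cytokinins by attaching glucose. It stood at 153 and 165 in zone 1 and 151 and 206 in zone 4, against 17.3 and 27.9 in zone 2 and 44.1 and 50.4 in zone 3. The groups did not overlap, and zones 1 and 4 differed by a log2 value of -0.15 (adjusted p = 0.86). The log2 difference was 2.38 (SE 0.32, adjusted p = 0.0022), and on zone 4 alone it was 2.45 (adjusted p = 0.040).

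UBC20, a gene for a ubiquitin-conjugating enzyme, was among the 6 brightest genes called higher whose groups did not overlap. Its signals were 2747 and 2099 in zone 1 and 2613 and 1606 in zone 4, against 1354 and 945 in zone 2 and 344 and 622 in zone 3. Zone 2 was intermediate and zone 3 lowest. The log2 difference was 1.62 (SE 0.27, adjusted p = 0.0047). Against zone 2 alone it was 0.97 (limma adjusted p = 0.18), which was not called.

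Several of the largest differences belonged to genes that carry only a locus number in the annotation used here. AT5G51470 had 80.7 and 769 in zone 1 and 264 and 350 in zone 4, against 1.48 and 3.16 in zone 2 and 1.99 and 3.46 in zone 3, a log2 difference of 6.85 (SE 0.86, adjusted p = 0.0019) that was 2.76 with dim signals raised. AT1G65570 stood at 108 and 848 in zone 1 and 574 and 676 in zone 4, against values from 21.5 to 35.1 in zones 2 and 3 (log2 3.98, SE 0.53, adjusted p = 0.0021). In both genes the first zone 1 array was far below the second, yet above all inner arrays. AT1G56680 was even across the outer zones, at 626 and 803 in zone 1 and 840 and 661 in zone 4, against 145 and 141 in zone 2 and 7.33 and 52.7 in zone 3 (log2 3.78, SE 0.50, adjusted p = 0.0021). Its levels in zones 1 and 4 overlapped, with a difference of -0.07 on the log2 scale. AT3G15720 was higher by 4.02 (SE 0.32, adjusted p = 0.00039), with 1265 and 713 in zone 1, 384 and 488 in zone 4, and 18.4 to 75.4 in zones 2 and 3.

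**Figure D2:**
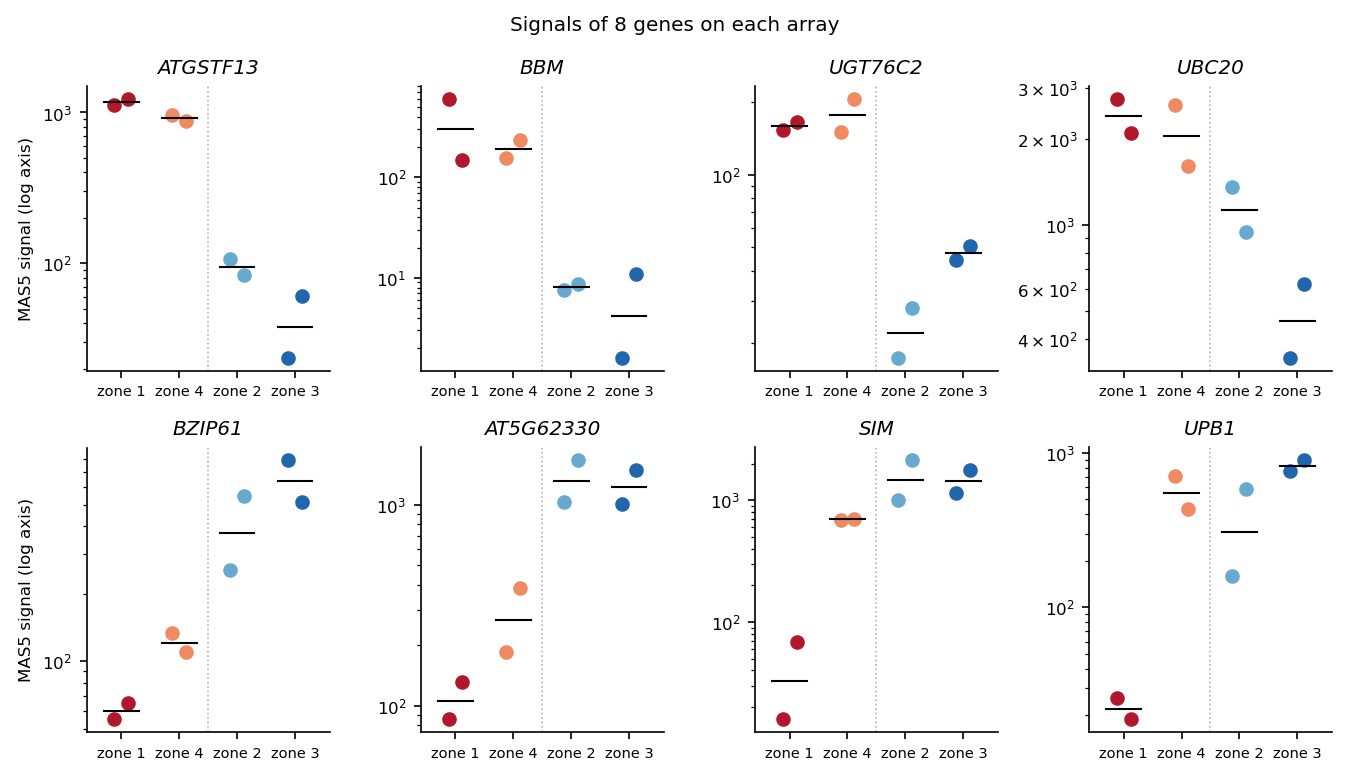
Signals of 8 genes on each of the 8 arrays, on a log axis, with zones 1 and 4 left and zones 2 and 3 right of the dotted line; points are single arrays (replicate 1 left, replicate 2 right) and bars are geometric means of 2 arrays. The upper 4 genes were called higher in zones 1 and 4 without overlap, BZIP61, AT5G62330 and SIM were called lower without overlap, and in UPB1 the zone 4 arrays (703 and 433) lie among those of zones 2 and 3.

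On the lower side, few genes were low in both outer zones to the same degree. BZIP61, a basic leucine zipper transcription factor gene, had 55.0 and 64.8 in zone 1 and 133 and 110 in zone 4, against 256 and 548 in zone 2 and 787 and 514 in zone 3. The 4 outer arrays were all below the 4 inner ones. The log2 difference was -2.52 (SE 0.29, adjusted p = 0.0015).

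AT1G76640, listed under the synonym CML39 and so a calmodulin-like gene, was lowest in zone 4. It stood at 55.3 and 47.1 in zone 1 and 9.66 and 45.9 in zone 4, against 360 and 343 in zone 2 and 441 and 193 in zone 3. The log2 difference was -3.29 (SE 0.47, adjusted p = 0.0025), and zone 4 alone was called at -3.93 (adjusted p = 0.038). AT4G28650, listed as PXL2 and named for its likeness to the receptor kinase PXY, fell to 28.9 and 140 in zone 1 and 287 and 243 in zone 4, against 534 and 763 in zone 2 and 1079 and 844 in zone 3 (log2 -2.59, SE 0.42, adjusted p = 0.0040). Here zone 1 was also below zone 4 (log2 -2.05, adjusted p = 0.044).

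The locus AT5G62330 had 85.5 and 131 in zone 1 and 185 and 386 in zone 4, against 1029 and 1665 in zone 2 and 1010 and 1485 in zone 3 (log2 -2.91, SE 0.31, adjusted p = 0.0012). A pair of loci with neighbouring numbers, AT5G51490 and AT5G51500, was low in both outer zones. AT5G51500 stood at 315 and 732 in zone 1 and 509 and 661 in zone 4, against 1885 and 2536 in zone 2 and 1655 and 2387 in zone 3 (log2 -1.98, SE 0.29, adjusted p = 0.0031), and AT5G51490 had a log2 difference of -2.97 (SE 0.49, adjusted p = 0.0043). The annotation lists them next to each other on the chromosome, and whether they share hybridising sequence was not tested. AT1G57590 followed the same even pattern, with 227 and 509 in zone 1, 288 and 613 in zone 4, 1975 and 1506 in zone 2, and 1785 and 2046 in zone 3 (log2 -2.26, SE 0.32, adjusted p = 0.0025).

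Among the brightest genes called lower without overlap, differences were smaller and graded over the zones. ZW9 had 1480 and 1785 in zone 1 and 4676 and 4146 in zone 4, against 6373 and 8093 in zone 2 and 11223 and 11580 in zone 3 (log2 -1.76, SE 0.19, adjusted p = 0.0012). MSRB9, which encodes a methionine sulfoxide reductase that repairs oxidised methionine, fell to 3981 and 1676 in zone 1 and 7860 and 4771 in zone 4, against 8553 and 11471 in zone 2 and 11377 and 12387 in zone 3 (log2 -1.45, SE 0.29, adjusted p = 0.0080). AT2G44060, listed as LEA26 of the late embryogenesis abundant proteins, had 2103 and 2095 in zone 1 and 3352 and 4146 in zone 4, against 5957 and 5205 in zone 2 and 10274 and 9056 in zone 3 (log2 -1.39, SE 0.18, adjusted p = 0.0021). In ZW9 and AT2G44060 the order of the zone means was 1, 4, 2 and 3 from low to high.

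Other genes called lower were dim in zone 1 and far brighter in zone 4, where they were not called against zones 2 and 3. A missing call does not show equal levels. SIM encodes SIAMESE, an inhibitor of cyclin-dependent kinases that promotes endoreduplication in place of division. It had 15.8 and 68.8 in zone 1 and 692 and 709 in zone 4, against 1014 and 2127 in zone 2 and 1159 and 1789 in zone 3. The sides did not overlap, but zone 1 lay below zone 4 by 4.41 on the log2 scale (log2 -4.41, adjusted p = 0.0016), and zone 4 alone was not called against zones 2 and 3 (log2 -1.05, adjusted p = 0.36). The averaged difference was -3.26 (SE 0.43, adjusted p = 0.0021).

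UPB1 encodes UPBEAT1, a basic helix-loop-helix factor known for setting the transition from proliferation to differentiation in the root. It had 25.8 and 18.8 in zone 1 and 703 and 433 in zone 4, against 159 and 585 in zone 2 and 759 and 890 in zone 3. The call on the average (log2 -2.18, SE 0.38, adjusted p = 0.0053) came from zone 1, at -4.50, and zone 4 was at 0.14 (adjusted p = 0.92). The locus AT5G44020 shows a wider gap, with 6.06 and 2.63 in zone 1 and 3811 and 3171 in zone 4, against 520 and 1540 in zone 2 and 4154 and 3600 in zone 3. The average was called lower (log2 -3.98, SE 0.37, adjusted p = 0.00055) although zone 4 had a difference of 0.90 (adjusted p = 0.36). Its zone 1 signals were near the dim end, and the average was -2.52 with dim signals raised. AT3G05920, AT1G04040 and AT5G06930 had the same form, with zone 1 differences from -7.63 to -6.47 and zone 4 differences from -0.57 to 0.08. With dim signals raised, the averaged difference was -1.67 for AT3G05920, against -3.77 as deposited, and -1.77 for AT5G06930, against -3.52.

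Of 14 cell division genes tested, 8 were called higher and 1, SIM, lower, and the median log2 difference was 1.63, against 0.04 over all probe sets tested, where 9.51% were called higher. The 8 differences ranged from 1.36 to 2.87, and the other 5 members were above 0, from 0.16 to 1.77, without a call. By zone the list's median was 2.04 in zone 1 and 1.11 in zone 4, and none of its members was called on zone 4 alone.

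Haspin, a kinase that marks histone H3 in mitosis, had 254 and 132 in zone 1 and 112 and 93.3 in zone 4, against 73.3 and 57.0 in zone 2 and 4.50 and 6.53 in zone 3 (log2 2.87, SE 0.41, adjusted p = 0.0027). Its zone 3 signals were dim, and the difference was 1.40 with dim signals raised. 3xHMG-box1, which binds mitotic chromosomes, stood at 547 and 291 in zone 1 and 190 and 161 in zone 4, against 104 and 88.5 in zone 2 and 25.0 and 29.2 in zone 3 (log2 2.37, SE 0.28, adjusted p = 0.0016). Neither overlapped between the sides. BUBR1, of the spindle checkpoint, had 269 and 181 in zone 1 and 97.0 and 32.7 in zone 4, against 70.0 and 43.6 in zone 2 and 3.20 and 8.29 in zone 3 (log2 2.72, SE 0.55, adjusted p = 0.0086). One zone 4 array of BUBR1 lay below both zone 2 arrays, and its call was lost without zone 4 replicate 1 (adjusted p = 0.054). With dim signals raised its difference was 1.32. Over the list, leaving out zone 4 replicate 1 left 5 called higher, leaving out zone 3 replicate 2 gave 10, and leaving out all of zone 3 gave 0.

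Of 12 DNA replication and histone genes, 2 were called higher and none lower, with a median of 0.68, against 9.51% called higher over all tested. POLA3, a subunit of DNA polymerase alpha, was at 1250 and 519 in zone 1 and 399 and 436 in zone 4, against 301 and 241 in zone 2 and 155 and 219 in zone 3 (log2 1.38, SE 0.30, adjusted p = 0.012, and 0.059 without zone 2 replicate 2). POLD3, of DNA polymerase delta, had a log2 difference of 1.60 (adjusted p = 0.028), which lost its call without any one of 6 arrays. None of 8 genes of DNA methylation and chromatin maintenance was called, with values from -0.33 to 1.31. Among 13 DNA repair genes 2 were called higher, against the same 9.51%, and the list's median was 0.13. The 2 were TERT, the telomerase subunit, and UNG, a uracil glycosylase (log2 2.74 and 2.40), on signals of at most 172 in the outer zones. TERT lost its call without any one of 4 arrays and with dim signals raised (log2 0.81, adjusted p = 0.091). UNG lost its call without any one of 6 arrays (adjusted p up to 0.16), and its difference was 1.34 with dim signals raised.

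Ribosome production genes were mostly higher. Of 14 genes for rRNA synthesis and ribosome assembly, 12 were called higher and none lower, against 9.51% called higher over all tested. The median log2 difference was 1.50, and the 12 ranged from 1.04 to 2.17. RBL, known as REBELOTE, had 1237 and 1068 in zone 1 and 256 and 234 in zone 4, against 319 and 158 in zone 2 and 45.9 and 83.4 in zone 3 (log2 2.17, SE 0.30, adjusted p = 0.0023). YAO, a nucleolar protein of rRNA processing, stood at 1989 and 2021 in zone 1 and 509 and 499 in zone 4, against 713 and 324 in zone 2 and 137 and 192 in zone 3 (log2 1.85, SE 0.28, adjusted p = 0.0032). In both genes zone 1 was far above the rest, and the zone 4 arrays lay between the 2 arrays of zone 2.

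NRPA2, the second largest subunit of RNA polymerase I, had 1892 and 1227 in zone 1 and 465 and 722 in zone 4, against 613 and 305 in zone 2 and 119 and 239 in zone 3 (log2 1.80, SE 0.33, adjusted p = 0.0060). AT5G14520, listed as PES for the ribosome assembly factor Pescadillo, had a log2 difference of 1.82 (SE 0.31, adjusted p = 0.0047). The sides overlapped in 12 of the 14 genes, and 5 of the 14 were also higher in zone 1 than in zone 4. The list's median was 2.19 in zone 1 and 0.82 in zone 4, and none of its members was called on zone 4 alone. Both outer means lay above both inner means in 11 of the 14, against 23.6% over all tested. With each array centred on its median that held in 4 of the 14, against 15.2%, and the zone 4 median was 0.57. When zone 4 replicate 1 was left out, 8 were called higher, and when zone 3 was left out, 0.

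**Figure D3:**
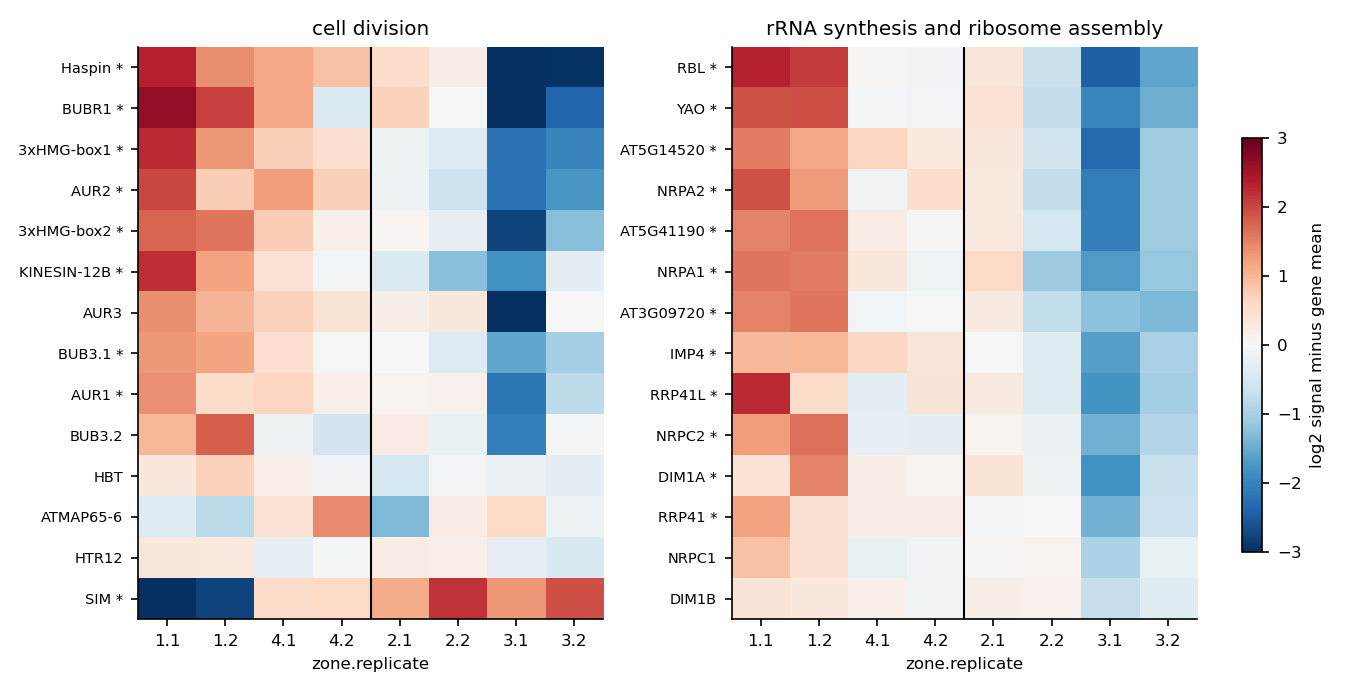
Log2 signal of each tested member of 2 gene lists (14 genes each) on each array, minus the gene's mean over the 8 arrays; columns are zone and replicate, with zones 1 and 4 left of the black line and zones 2 and 3 right of it, and an asterisk marks genes called in the averaged comparison. Zone 1 is the darkest red for most genes and zone 3 the darkest blue, zone 4 lies closer to zone 2, and SIM runs the other way.

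Of 8 subunits of RNA polymerases II, IV and V, 2 were called higher, against 9.51% over all tested. They were NRPE7 (log2 1.66, SE 0.28, adjusted p = 0.0048) and NRPB6A (log2 1.16, SE 0.22, adjusted p = 0.0064). NRPE7 was even across the outer zones, with 249 and 205 in zone 1 and 242 and 140 in zone 4, against 85.3 and 76.3 in zone 2 and 43.1 and 61.2 in zone 3. Of 11 heat shock chaperones and co-chaperones, 4 were called higher, against the same 9.51%, but just 1 when replicate 1 of zone 1, 3 or 4 or replicate 2 of zone 2 was absent. Hsp70-2 had 1086 and 1236 in zone 1 but 113 and 151 in zone 4, against 213 and 242 in zone 2 and 92.3 and 147 in zone 3. Its call on the average (log2 1.26, SE 0.25, adjusted p = 0.0078) was therefore a zone 1 value.

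Of 8 tested regulators of the root meristem and stem cells, BBM and PHV were called higher and UPB1 lower. Over all tested, 9.51% were called higher and 5.74% lower, which is also the background for the auxin and gibberellin lists below. PHV, a class III homeodomain leucine zipper gene, had 91.4 and 107 in zone 1 and 136 and 97.4 in zone 4, against 89 and 65.3 in zone 2 and 26.3 and 35.9 in zone 3 (log2 1.14, SE 0.32, adjusted p = 0.032). That call was lost without any one of 6 arrays. Among 8 auxin genes 1 was called, IAA33, a member of the Aux/IAA family, with 65.0 and 114 in zone 1 and 77.9 and 72.8 in zone 4, against 16.5 and 29.1 in zone 2 and 1.57 and 3.73 in zone 3 (log2 3.47, SE 0.75, adjusted p = 0.012). It was even in the outer zones, but its signals were low, the difference was 0.99 with dim signals raised, and the call was lost without either zone 4 array or zone 1 replicate 2 (adjusted p up to 0.074). SLY2, an F-box gene of gibberellin signalling, was called higher among 5 genes of that pathway (log2 2.70, SE 0.71, adjusted p = 0.024), and lost its call without any one of 5 arrays. With dim signals raised its difference was 1.88. None of the 4 listed markers of lateral root initiation was bright enough to be tested.

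Calls among cytoskeleton genes went in both directions. Of 8 tubulins and actins, TUB7 was called higher and TUB1 and TUB5 lower, against 9.51% and 5.74% over all tested. TUB1 had 101 and 149 in zone 1 and 2056 and 985 in zone 4, against 1231 and 1847 in zone 2 and 3779 and 2296 in zone 3 (log2 -2.33, SE 0.30, adjusted p = 0.0021). TUB5 was low in both outer zones, at 199 and 645 in zone 1 and 590 and 529 in zone 4, against 1186 and 1369 in zone 2 and 1707 and 1238 in zone 3 (log2 -1.60, SE 0.34, adjusted p = 0.010, and 0.053 without zone 2 replicate 2). TUB7 ran the other way, with 1517 and 1047 in zone 1 and 737 and 649 in zone 4, against 729 and 342 in zone 2 and 360 and 317 in zone 3 (log2 1.19, SE 0.28, adjusted p = 0.016). Its call was lost without zone 2 replicate 2 or zone 4 replicate 1, with an adjusted p up to 0.066.

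Of 24 microtubule, IQD and TON1-motif genes, 3 were called higher and 3 lower, against 9.51% and 5.74% over all tested. IQD18, of a family of calmodulin-binding microtubule proteins, had 375 and 258 in zone 1 and 224 and 246 in zone 4, against 139 and 145 in zone 2 and 36.1 and 56.9 in zone 3 (log2 1.75, SE 0.26, adjusted p = 0.0031). IQD16 of the same family was also higher (log2 2.23, adjusted p = 0.023), and IQD19 was lower (log2 -2.63, adjusted p = 0.015), with 1.62 and 13.1 in zone 1 and 108 and 69.9 in zone 4, against 77.5 and 87 in zone 2 and 195 and 181 in zone 3. The calls of these IQD genes thus did not all go in the same direction. IQD16 lost its call without any one of 5 arrays (adjusted p up to 0.076) and IQD19 without either of 2 (up to 0.067), and with dim signals raised the difference of IQD19 was -1.28.

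Conjugating enzymes gave calls in both directions. Over all tested, 9.51% were called higher and 5.74% lower, which is the background for both families below. Of 31 UDP-glucosyltransferases, UGT76C2 was called higher and 3 were called lower, and the median was -0.68. UGT71C4 had 240 and 398 in zone 1 and 702 and 1095 in zone 4, against 1147 and 1835 in zone 2 and 2223 and 1262 in zone 3 (log2 -1.58, SE 0.29, adjusted p = 0.0064). UGT85A7 was lowest in zone 4, with 12.5 and 19.9 there and 32 and 51.8 in zone 1, against 55.6 to 138 in zones 2 and 3 (log2 -1.87, adjusted p = 0.019, up to 0.11 without 1 array, and log2 -1.10 with dim signals raised). Among 8 glutathione transferases ATGSTF13 was called higher and GSTL3 lower (log2 -1.33, adjusted p = 0.038), and the call of GSTL3 held without only 1 of the 8 arrays.

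Of 6 vacuolar and SWEET sugar transporters, 2 were called lower, against 5.74% over all tested. TMT1, a sugar carrier of the vacuole membrane, had 264 and 274 in zone 1 and 1037 and 708 in zone 4, against 896 and 1387 in zone 2 and 1612 and 1289 in zone 3 (log2 -1.40, SE 0.24, adjusted p = 0.0048). SWEET16, another vacuolar sugar transporter, was lower by a log2 value of -1.71 (SE 0.33, adjusted p = 0.0075), and in both genes zone 1 was below zone 4. Of 9 genes of sulfate assimilation and sulfur deficiency, 1 was called, lower in zones 1 and 4, against 5.74% called lower over all tested. MGL, methionine gamma-lyase, had 37.4 and 63.6 in zone 1 and 134 and 285 in zone 4, against 493 and 603 in zone 2 and 517 and 175 in zone 3 (log2 -2.05, SE 0.38, adjusted p = 0.0066). The other 8 lay between -0.78 and 0.51.

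Wall and stress genes showed calls in both directions. Of 19 TBL genes, a family of wall acetyltransferases, 2 were called higher and 4 lower, against 9.51% and 5.74% over all tested. Their median was -0.63. TBL21 had 1.22 and 5.92 in zone 1 and 332 and 226 in zone 4, against 66.6 and 192 in zone 2 and 623 and 410 in zone 3 (log2 -3.14, SE 0.52, adjusted p = 0.0044, and -1.39 with dim signals raised). TBL38 was called lower on the average (log2 -2.15, adjusted p = 0.029) although zone 4 was above zones 2 and 3 by 2.03 (adjusted p = 0.23), and its call was lost without any one of 5 arrays and with dim signals raised (log2 -0.40, adjusted p = 0.53). CSLA03, a cellulose synthase-like gene, was lower (log2 -3.22, SE 0.74, adjusted p = 0.015), with 25.3 and 1.22 in zone 1 and 179 and 300 in zone 4, and lost its call without zone 2 replicate 2 or zone 4 replicate 1 (adjusted p up to 0.074). With dim signals raised its difference was -2.0. HVA22C, of a family induced by abscisic acid, was higher at 709 and 792 in zone 1 and 579 and 423 in zone 4, against 260 and 234 in zone 2 and 144 and 236 in zone 3 (log2 1.51, SE 0.25, adjusted p = 0.0040). Of 6 cold and dehydration genes tested, HVA22C alone was called higher and 2 were called lower, against 9.51% and 5.74% over all tested. The other 3 lay from -0.98 to -0.22, and the list's median was -0.90. TET10, a tetraspanin gene, was also higher (log2 1.73, SE 0.33, adjusted p = 0.0069), while 3 of the other tetraspanins were called lower.

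Of 7 plant U-box ubiquitin ligases 2 were called lower, PUB19 and PUB22, against 5.74% over all tested, and both were zone 1 values. The log2 difference of PUB22 ran from -1.23 to -0.82 with 1 array left out at a time, so it fell short of 2-fold and of a call in some fits. PUB19 had 25.7 and 45.5 in zone 1 and 246 and 335 in zone 4, against 218 and 202 in zone 2 and 331 and 282 in zone 3 (log2 -1.35, SE 0.27, adjusted p = 0.0080). LCR68, of the defensin-type peptides, was called lower (log2 -2.15, adjusted p = 0.0032) with -5.20 from zone 1 and 0.89 from zone 4. RALFL22, a RALF signalling peptide, was called higher (log2 1.07, adjusted p = 0.018) and had the larger part from zone 4, at 1.64, against 0.51 from zone 1. RALFL33 of the same family was lower (log2 -1.15, adjusted p = 0.022). With 1 array left out at a time, the difference ran from 0.88 to 1.27 for RALFL22 and from -1.44 to -0.85 for RALFL33. Both thus fell short of 2-fold in some fits and were not called there. The carboxypeptidase-like gene scpl25 was called higher on the average (adjusted p = 0.015), with 1.33 in zone 1 and 1.63 in zone 4. Its relative scpl40 was called lower (adjusted p = 0.0039), with -3.73 and -1.18. Neither was called on zone 4 alone. With 1 array left out at a time, the difference of scpl25 ran from 1.23 to 1.73. Of 8 citric acid cycle genes and 4 of ATP citrate lyase none was called, and all 12 lay below 0, with list medians of -0.63 and -0.51.

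Some genes had zone 1 and zone 4 differences of opposite sign, so that the average showed little. The root hair expansin gene EXPA7 had 17.4 and 4.89 in zone 1 and 164 and 619 in zone 4, against 24.9 and 71.9 in zone 2 and 145 and 118 in zone 3, and its averaged difference was -0.46 (adjusted p = 0.60). EXPA18, also of root hairs, stood at 26.9 and 3.61 in zone 1 and 154 and 1268 in zone 4, against 27.6 and 29.3 in zone 2 and 215 and 101 in zone 3, an average of 0.03 (adjusted p = 0.98). Both genes were called lower in zone 1 than in zone 4 (log2 -5.11 and -5.49). Neither was called on zone 4 against zones 2 and 3, and the first zone 4 array of each, at 164 and 154, was near the zone 3 signals.

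Expansins with xyloglucan endotransglucosylases, autophagy genes and nuclear photosynthesis genes had list medians of opposite sign in zones 1 and 4, also with each array centred on its median. Over all tested, 15.2% were called on the average in either direction, and 10.5% were called lower in zone 1 than in zone 4. Of 18 expansin and xyloglucan endotransglucosylase genes 1 was called on the average, XTH16 (log2 -1.80, SE 0.29, adjusted p = 0.0041), while 9 were lower in zone 1 than in zone 4. The list's medians were -1.44 in zone 1 and 0.60 in zone 4. None of 10 autophagy genes, most of them of the ATG8 family that coats autophagosomes, was called on the average, and 5 were lower in zone 1 than in zone 4, with medians of -1.12 and 0.66. The 7 tested nuclear photosynthesis genes gave no call, with medians of -1.0 in zone 1 and 1.04 in zone 4, and 4 of them were lower in zone 1 than in zone 4. Genes encoded in the plastid gave 1 call among 21 for gene expression and none among 43 for photosynthesis. The medians of those 43 were 0.65 in zone 1 and 0.05 in zone 4 as deposited. With each array centred they were 0.77 and -0.20, so whether their signs differed depended on the scaling. Those of 8 cellulose synthase and callose genes were -0.57 and -0.21, and -0.46 and -0.46 after centring, of the same sign both times.

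**Figure D4:**
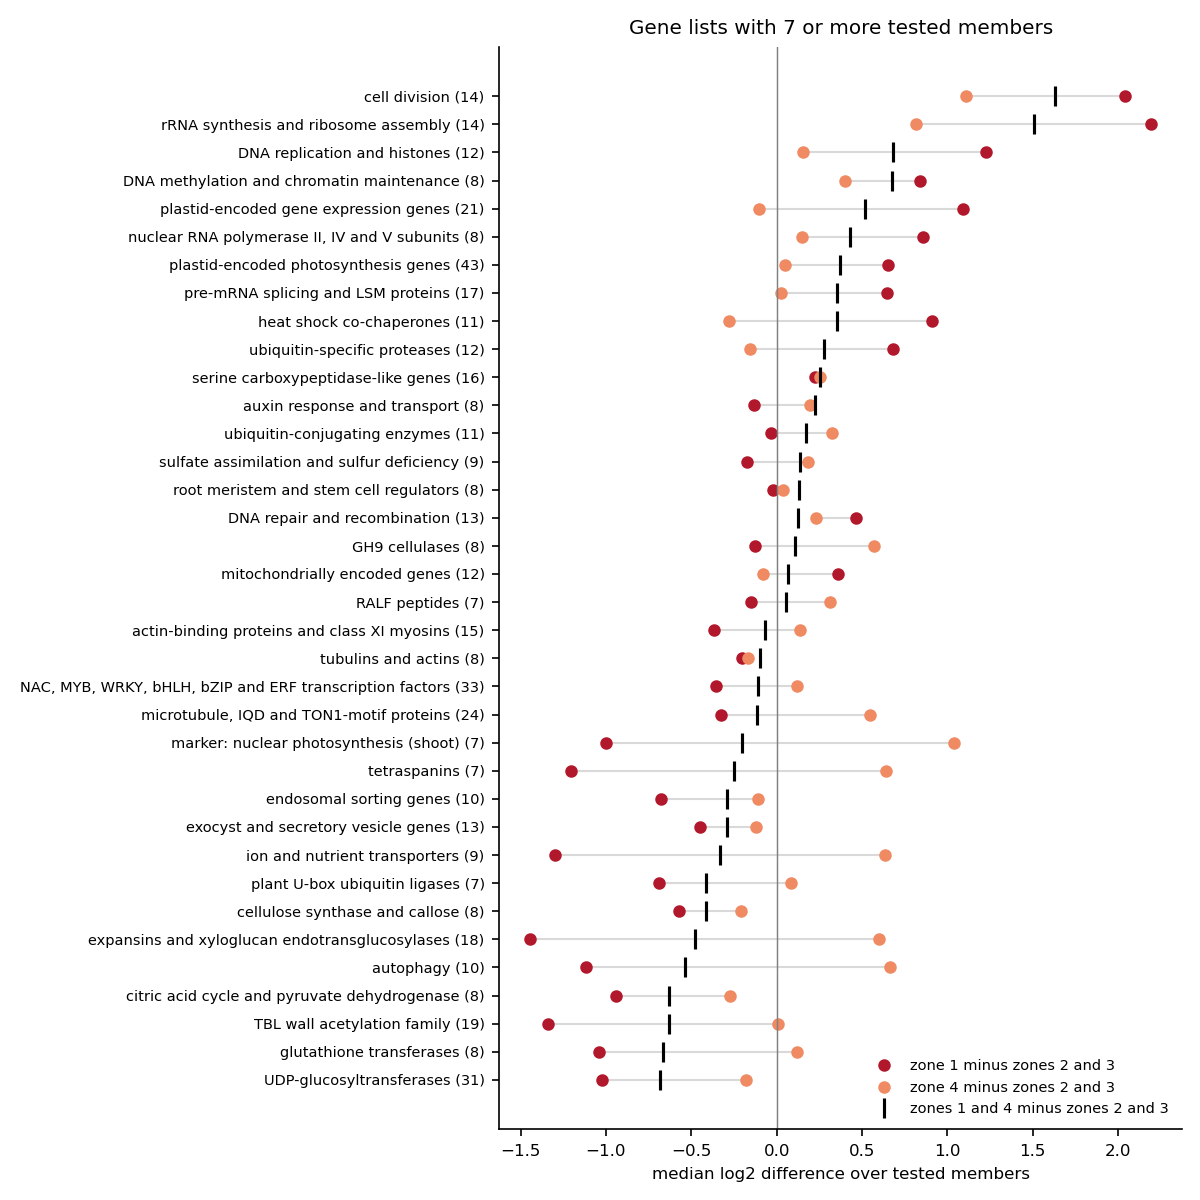
Median log2 difference over the tested members (number in brackets) of each gene list with at least 7 of them: red for zone 1 and orange for zone 4, each against zones 2 and 3, and a black tick for the average of the 2. The ticks of cell division (1.63) and rRNA synthesis and ribosome assembly (1.50) lie farthest right, while for expansins, autophagy and nuclear photosynthesis genes the red and orange points lie on opposite sides of 0.

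Taken alone, zone 4 differed from zones 2 and 3 in 34 probe sets (0.249%), 27 higher (0.198%) and 7 lower (0.0513%), 14 and 12 with each array centred on its median. Zone 1 alone differed in 4249 (31.1%), 2160 higher (15.8%) and 2089 lower (15.3%). The comparisons share the zone 2 and zone 3 arrays. The 34 included 16 that represent a named gene, 13 higher and 3 lower. ATGSTF13, UGT76C2, AT5G51470, AT1G65570, AT3G15720, AT1G56680 and AT5G55180 were among the 13, and AT1G76640 and AT5G62330 among the 3. AT5G55180 had 4102 and 2938 in zone 1 and 2172 and 1846 in zone 4, against 1146 and 656 in zone 2 and 376 and 380 in zone 3 (log2 2.20, SE 0.24, adjusted p = 0.0012). Leaving out 1 array at a time gave between 0 and 210 calls on zone 4. The value of 0 came with replicate 2 of zone 2 or replicate 1 of zone 4 left out, where limma's unadjusted p was under 0.05 for 1587 and 1081 probe sets, and the value of 210 with replicate 2 of zone 3 left out.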

How the data were processed

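Total RNA from root sections was hybridised to Affymetrix arrays. The deposited intensity values are MAS5 signals on a linear scale, 1 per probe set and array, per the submitters' processing notes, and the 2% trimmed mean of 250.0 on each array shows a common scaling. Which MAS5 version and chip file were used is not given in the sources used here. Of 22810 probe sets, 64 controls were left out, and 13513 of the other 22746 were paired with 1 gene by the platform annotation, 503 with several and 8730 are unnamed here. 13484 matched a locus in the RefSeq gene table of TAIR10.1, used for names and for which loci are neighbours.

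Signals were taken to log2, the dimmest 40% by mean signal (42.5 or less) were dropped, and a zone-means model of all 8 arrays was fitted in limma 3.58.1 (R 4.3.3) (eBayes with trend, 4 residual and 6.5 prior degrees of freedom). Tests were two-sided, adjusted by Benjamini-Hochberg over 13647 probe sets. Values are log2 differences with moderated SEs. The fit was tested on simulated data. A locus is represented by its brightest probe set.

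Named genes are the 12 largest calls per direction with no overlap and a higher side mean of at least 75.0, the 6 brightest, the 4 largest with overlap, 6 with zones 1 and 4 within 0.5 log2, and up to 4 of each of 58 gene lists. The comparison and lists were chosen with earlier results of these data known, and the lists were edited after the annotation was seen. Alternatives were the scaling, filter, offset, floor, prior, replicate block, minimum fold, 1 mean per side, and leaving out zones or arrays, and leaving out 2 arrays together was added after the data were seen. The sequence search of promoters was not run. Tables and plots were made with matplotlib 3.10.9, pandas 2.3.3 and numpy 2.4.6 under Python 3.11.15.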

Additional observations from a re-analysis of the deposited data

How the results depend on the processing

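Another scaling, filter, prior or floor gave 1622 to 2066 calls, against 2081, an offset of 32 gave 1561, no minimum fold gave 2872, and a fit with replicate number as a block gave 2025, with 4151, 30 and 1727 calls for zone 1 alone, zone 4 alone and zone 1 against zone 4. Same-numbered arrays did not deviate together (r from -0.19 to 0.037). Correlations over probe sets that are not independent cannot settle whether same-numbered samples were paired, and the labels do not say. Dropping zones gave 34 calls without zone 1, 4249 without zone 4, 3146 without zone 2 and 60 without zone 3, and 25 with 1 mean per side. Without single arrays the count was 906 to 2306 for the average, 0 to 210 for zone 4 alone and 426 to 1956 for zone 1 against zone 4 (426 and 678 without zone 4 replicate 2 or 1, against 1957). The 34 calls of zone 4 were 99 with an offset of 32, 104 with dim signals raised, 1 without the trend prior, and 92 without zone 2 replicate 1 and zone 3 replicate 2, a setting chosen after the data were seen. With arrays centred on their medians, the midpoint of all log2 differences was 0.36, against -0.0013 as deposited, for zone 1 against zone 4, and -0.15, against 0.10, for zone 4 alone. Signs turned without zone 1 for TBL21 (0.20), SBT4.12 (0.63), AT5G44020 (0.90), Hsp70-2 (-0.32), PUB22 (0.082), LTI30 (0.019), TET5 (0.23), AT3G05920 (0.080), UPB1 (0.14), TBL38 (2.03), PUB19 (0.18) and LCR68 (0.89), and without zone 4 for EXPA18 (-2.72); each such value is that of the outer zone kept, and no other cause was tested. Of 118 named genes called, 61 were called without each array in turn. Fewer of the same 118 kept the call in harsher settings: 9 without zone 1, 18 without zone 3 and 8 with 1 mean per side. Without zone 4 it was kept by 112, and without zone 2 by 116. Against zone 2 alone NRPE7, IQD18 and HVA22C were not called (limma adjusted p = 0.12, 0.18 and 0.089). Dim signals limit the size of folds such as that of BBM.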
